A study of Mus musculus with 12 samples.

Results

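The 10 genes described here code for interferon-inducible GTPases: the guanylate-binding proteins Gbp2, Gbp3, Gbp4, Gbp5, Gbp6 and Gbp7, and the immunity-related GTPases Igtp, Irgm1, Irgm2 and Iigp1. They were taken by name, as every non-control probe of the array whose RefSeq accession maps to one of these symbols. The array held 13 probes for the 10 genes, 2 each for Gbp6, Irgm1 and Iigp1. In all, 9 of the 10 genes were among the 24184 genes or transcripts tested, and Gbp4 was not, because its probe was not well above background on every array of any group.

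RNA came from DKO172 cells, grown from the fallopian tumor of a female mouse, and was measured on 12 single-colour Agilent arrays in 4 groups of 3. The GFP group carried a hygromycin-resistance plasmid expressing GFP, and the WT, D1709N and G1809R groups carried the same plasmid with wild-type DICER1 or with DICER1 bearing the named substitution. DICER1 is the RNase that cuts microRNA precursors, and both substitutions are hotspot mutations found in tumors. The labels used here state no deletion in this line, so the GFP group is called only by its plasmid. All groups were treated alike: cells plated at 200000 per well received 2 µg of plasmid, were replated after 24 h, were kept in 300 µg/ml hygromycin for 84 h and gave RNA 108 h after transfection. No untransfected group is among the samples, so every group had been exposed to plasmid and hygromycin. The labels give replicate numbers 1 to 3 without saying whether these were separate cultures, so a p-value here speaks only to the spread among these arrays, and that spread may be technical.

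Guanylate-binding proteins (GBPs) are large GTPases that assemble on the membranes of intracellular microbes and of the vacuoles that hold them, where they help to lyse the vacuole and to expose microbial products to inflammasomes. Immunity-related GTPases (IRGs) fall into a regulatory class, Irgm1, Irgm2 and Igtp (also called Irgm3), which sits on the cell's own membranes and holds the effectors inactive, and an effector class, to which Iigp1 (also called Irga6) belongs. Both families are near silent in many resting cells and are transcribed in response to interferons. Type I interferons act through interferon-stimulated response elements (ISRE) in promoters, and interferon-gamma acts through gamma-activated sites (GAS) and through the transcription factor Irf1.

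Promoter stretches are shown because those at hand share the letters of interferon response elements, which the choice by name did not use. RefSeq's promoter table for GRCm38.p6 held 7 of the 10 members, Gbp2, Gbp3, Gbp5, Gbp7, Igtp, Irgm1 and Irgm2; Gbp4, Gbp6 and Iigp1 had no entry. Stretches from the 250 bases upstream of the start are printed 5′ to 3′ on the gene's strand, with capitals marking ISRE letters (GAAA, any 2 bases and GAAA again, or on the other strand TTTC, any 2 bases and TTTC) and GAS letters (TTCNNNGAA, its own reverse), overlapping matches included.
Gbp2, chr3:142620584-142620633, plus strand: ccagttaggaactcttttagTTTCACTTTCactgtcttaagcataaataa
Gbp3, chr3:142559979-142560034, plus strand: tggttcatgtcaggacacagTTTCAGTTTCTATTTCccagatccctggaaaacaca
Gbp7, chr3:142530210-142530312, plus strand: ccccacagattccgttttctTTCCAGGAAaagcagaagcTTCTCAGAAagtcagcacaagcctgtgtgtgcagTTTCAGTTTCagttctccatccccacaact
Irgm1, chr11:48871421-48871470, minus strand: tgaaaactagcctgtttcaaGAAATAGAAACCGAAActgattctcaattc
Igtp, chr11:58199491-58199551, plus strand: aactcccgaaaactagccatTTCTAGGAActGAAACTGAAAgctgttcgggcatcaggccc
Irgm2, chr11:58214882-58214942, plus strand: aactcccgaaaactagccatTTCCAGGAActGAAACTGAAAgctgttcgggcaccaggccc
The stretches of the neighbouring genes Igtp and Irgm2 were identical at 59 of 61 bases, the differences being T24C and T54C (Igtp's base first, counted from 1 at the 5′ end).

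The ISRE letters were present for 7 of the 7 genes read, against 2.98% of the 32851 promoters in the table. Gbp3 has 2 listed promoters, and the second held neither motif. The GAS letters were present for 4 of the 7 (Gbp5, Gbp7, Igtp and Irgm2), against 7.02% of all promoters, and these 4 genes held both motifs, against 0.332% of all promoters. Gbp5 carried 1 ISRE match and 2 GAS matches in its 250 bases. A match describes letters only and shows neither a binding site nor its use in these cells.

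By position, Gbp5, Gbp7, Gbp3 and Gbp2 lie on chromosome 3 in one run of GBP genes, Gbp4 and Gbp6 lie among GBP genes on chromosome 5, Igtp and Irgm2 are neighbours on chromosome 11, Irgm1 is elsewhere on chromosome 11 and Iigp1 is on chromosome 18. Relatives this close can share sequence, and whether a probe also reads a relative was not tested. Levels below are log2 signal relative to the array's 75th percentile, so they compare groups within a probe and not one gene with another.

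Across the whole series, the 75th percentile of signal lay between 1036 and 1462 intensity units, and 49.51% to 82.72% of probes were well above background. WT replicate 1 stood apart, with both the lowest 75th percentile and the highest share of probes above background. Replicate 1 of every group was on slide 1 and replicates 2 and 3 were on slide 2. The deviations of same-numbered arrays from their group means correlated at 0.601 to 0.853 over 18 pairs, so the replicate numbers pair the samples, and the fit with replicate number as a block is given beside each result whose call it changes. The array's mouse Dicer1 probe read 1.13 ± 0.20 (SD, n = 3) in GFP, 0.27 ± 0.23 in WT, 0.82 ± 0.18 in D1709N and 0.92 ± 0.24 in G1809R. It was higher in none of the 3 DICER1 groups, and it does not serve as a check of construct expression.

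The epithelial markers Krt8, Krt18, Krt7, Wt1 and Esr1 and the oviduct glycoprotein Ovgp1 were well above background on 12 of 12 arrays. Pax8, a defining marker of oviduct secretory cells, was so on 4, Epcam on 11, Cdh1 on 10, Cldn3 on 5 and Foxj1 on 4. Of 8 tested, 4 were above 0 in D1709N against WT: Krt7 (0.91), Krt8 (0.76), Krt18 (0.63) and Wt1 (0.55). These 4 passed only with the replicate block (limma adjusted p 0.021, 0.00952, 0.0133 and 0.0185). Epcam (−0.65), Esr1 (−0.36), Cdh1 (−0.28) and Ovgp1 (−0.24) were below 0 and did not pass. In G1809R against WT, 2 of the 8 rose with the block (Krt8 and Wt1) and 1 fell (Esr1). The block passed 8.42% and 6.31% of all genes in the lower direction in these comparisons, and its counts in either direction are given further on. Among leukocyte markers, Ptprc (CD45) was well above background on 5 of 12 arrays, Laptm5 on 4 and Lyz2 on 1, while Csf1r, Itgam and Cd14 were on 12. The summed linear level of 9 leukocyte markers ranged from 15.7 to 24.1 in GFP, 15.1 to 24.2 in WT, 20.02 to 28.4 in D1709N and 20.1 to 28.1 in G1809R. Of 9 T and NK cell markers, Cd3e, Cd4, Nkg7 and Prf1 were well above background on 12 arrays, Cd8a and Gzmb on 4, Cd2 on 3 and Cd3g and Ncr1 on 1 each. Their sum was 6.13 to 6.37 in GFP, 6.70 to 7.02 in WT, 6.44 to 6.92 in D1709N and 6.10 to 7.37 in G1809R. The endothelial markers Cdh5, Tie1 and Emcn were well above background on no array, Tek on 1, and Pecam1 and Kdr on 12. The sum of these 6 was 14.7 to 26.1 in GFP, 15.3 to 25.4 in WT, 10.01 to 19.1 in D1709N and 10.2 to 18.9 in G1809R.

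Stromal and mesenchymal markers also moved in part with the groups. Their sum over 9 genes was 74.9 to 207.1 in GFP, 99.7 to 215.0 in WT, 61.1 to 179.1 in D1709N and 62.3 to 152.4 in G1809R. The receptor gene Pdgfra fell in WT against GFP, from 0.0020 ± 0.16 (SD, n = 3) to −0.90 ± 0.024 (log2 change −0.91 ± 0.12, limma adjusted p = 0.0074, where 1.76% of all genes passed in the lower direction). With a block for the replicate number, 1 of the 9 rose in WT (Pdgfrb) and 2 fell (Pdgfra and Vim), beside 9.18% and 8.6% of all genes. In D1709N and in G1809R 3 fell with the block (Col1a2, Pdgfra and Acta2), beside 2.49% and 1.98% of all genes in that direction. The list's median was −0.19 in WT, −0.57 in D1709N and −0.26 in G1809R. The part of these cell type markers in the results below was not tested. In such bulk RNA, a gene expressed by more cells and a gene expressed more strongly per cell cannot be told apart.

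The first comparison asks what wild-type DICER1 did to these genes relative to GFP. Members of both families were higher with wild-type DICER1. A log2 change above 0 was seen for 9 of the 9 tested members, beside 56.72% of all genes, and each was higher in 3 of 3 same-numbered pairs. Gbp5 and the brighter probes of Gbp6 and Iigp1 passed neither with nor without the replicate block, and their WT and GFP arrays overlapped. The median log2 change of the 9 members was 2.77, beside 0.04 over all 24184 genes. Of the 9, 7 were well above background on 12 of 12 arrays, while Gbp5 entered the test through WT and G1809R and Gbp7 through G1809R alone. Over those 7 the median was 2.77 in WT, 1.53 in D1709N and 1.86 in G1809R, and 5, 2 and 5 of them rose with the replicate block. Irgm1 and Gbp2 rose past the threshold in limma across the 12 arrays (adjusted p under 0.05, which 1.19% of all genes passed in the higher direction and 2.95% in either). With the replicate block, 6 of 9 rose (Gbp2, Gbp3, Gbp7, Igtp, Irgm1 and Irgm2), beside 9.18% of all genes. The lowest WT array lay above the highest GFP array for those 6 members, beside 9.64% of all genes.

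Among the guanylate-binding proteins, Gbp2, a GBP that coats intracellular vacuoles and bacteria, read −3.80, −2.29 and −3.46 in GFP replicates 1 to 3, 0.59, 0.90 and −1.24 in WT, −2.51, −1.35 and −2.51 in D1709N and −2.02, −0.25 and −1.69 in G1809R. Its 3 WT arrays lay above all GFP and all D1709N arrays, and overlapped G1809R. It was 9.65-fold higher in WT than in GFP (log2 change 3.27 ± 0.67, standard error, n = 3 against 3, 95% interval 1.77 to 4.77), with a limma adjusted p of 0.0349, or 0.00122 with the replicate block.

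Gbp3, another GBP of the run on chromosome 3, read −3.20, −0.57 and −2.78 in GFP, 2.45, 2.50 and −0.46 in WT, −0.76, 1.59 and −0.70 in D1709N and −0.06, 2.36 and −0.45 in G1809R. Replicate 2 was the highest array of the group in GFP, D1709N and G1809R, and in WT replicates 1 and 2 were alike and replicate 3 was low. The change in WT was 3.68 ± 1.11 on the log2 scale (12.8-fold), with a limma adjusted p of 0.12, and 0.00341 with the replicate block. This was the largest fitted change among the 9 members and also one with a wide spread, since the array values of GFP alone covered −3.20 to −0.57.

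Gbp7, whose product has been linked to the recruitment of autophagy and oxidase components, read −8.33, −5.35 and −7.48 in GFP, −2.77, −3.16 and −5.21 in WT, −7.92, −4.15 and −5.94 in D1709N and −5.44, −3.14 and −4.60 in G1809R. It was well above background on 1 GFP array, 2 WT arrays, 1 D1709N array and 3 G1809R arrays, so it entered the test through G1809R alone. The fitted change in WT was 3.34 ± 1.11, with a GFP side that is mostly background, so it is no measured fold, and it had a limma adjusted p of 0.156, or 0.0167 with the replicate block.

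Gbp4, Gbp5 and Gbp6 make up the rest of the family. Gbp4 read −7.63, −7.28 and −5.76 in GFP, −4.69, −4.77 and −6.10 in WT, −6.27, −5.70 and −6.98 in D1709N and −6.51, −5.17 and −6.69 in G1809R, and only WT replicates 1 and 2 and G1809R replicate 2 were well above background. Gbp5, known for promoting inflammasome assembly, read −3.31, −4.78 and −5.38 in GFP and −2.86, −4.19 and −4.39 in WT, and −2.64, −4.72 and −5.34 in D1709N and −3.33, −4.14 and −4.38 in G1809R. Replicate 1, on slide 1, was its highest array in all 4 groups, and the groups overlapped throughout. Its difference of WT from GFP was 0.68 ± 0.75, with a limma adjusted p of 0.844, or 0.115 with the replicate block. The brighter probe of Gbp6 differed by 0.65 ± 0.39, with adjusted p values of 0.518 and 0.175, and its 2 probes are taken up further on.

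Among the regulatory IRGs, Irgm1, which protects the cell's own membranes from effector IRGs, read 1.51, 3.14 and 2.09 in GFP, 5.25, 5.19 and 4.59 in WT, 3.43, 4.80 and 4.21 in D1709N and 3.90, 5.11 and 4.50 in G1809R. No GFP array reached the lowest array of any DICER1 group, while the 3 DICER1 groups overlapped one another. Irgm1 was 6.81-fold higher in WT than in GFP (log2 change 2.77 ± 0.48, 95% interval 1.69 to 3.84), with a limma adjusted p of 0.0181, or 0.000924 with the replicate block.

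Igtp, the regulatory IRG also called Irgm3, read −0.66, 1.61 and −0.46 in GFP, 3.78, 3.92 and 1.96 in WT, 1.15, 2.79 and 1.26 in D1709N and 1.93, 3.45 and 1.80 in G1809R. Its values in WT and in G1809R lay above those in GFP on every array, while GFP replicate 2 overlapped D1709N. The change in WT was 3.05 ± 0.78 (8.31-fold), with a limma adjusted p of 0.0724, or 0.00163 with the replicate block. Irgm2, the third regulatory IRG, read −0.04, 1.46 and −0.48 in GFP, 3.08, 3.02 and 1.68 in WT, 1.52, 2.67 and 1.33 in D1709N and 2.02, 2.93 and 1.52 in G1809R. As for Igtp, replicate 2 was the high array of GFP, D1709N and G1809R, and WT and G1809R lay above GFP on every array. Its change in WT was 2.28 ± 0.61 (4.86-fold), with a limma adjusted p of 0.0833, or 0.00123 with the replicate block.

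**Figure D1:**
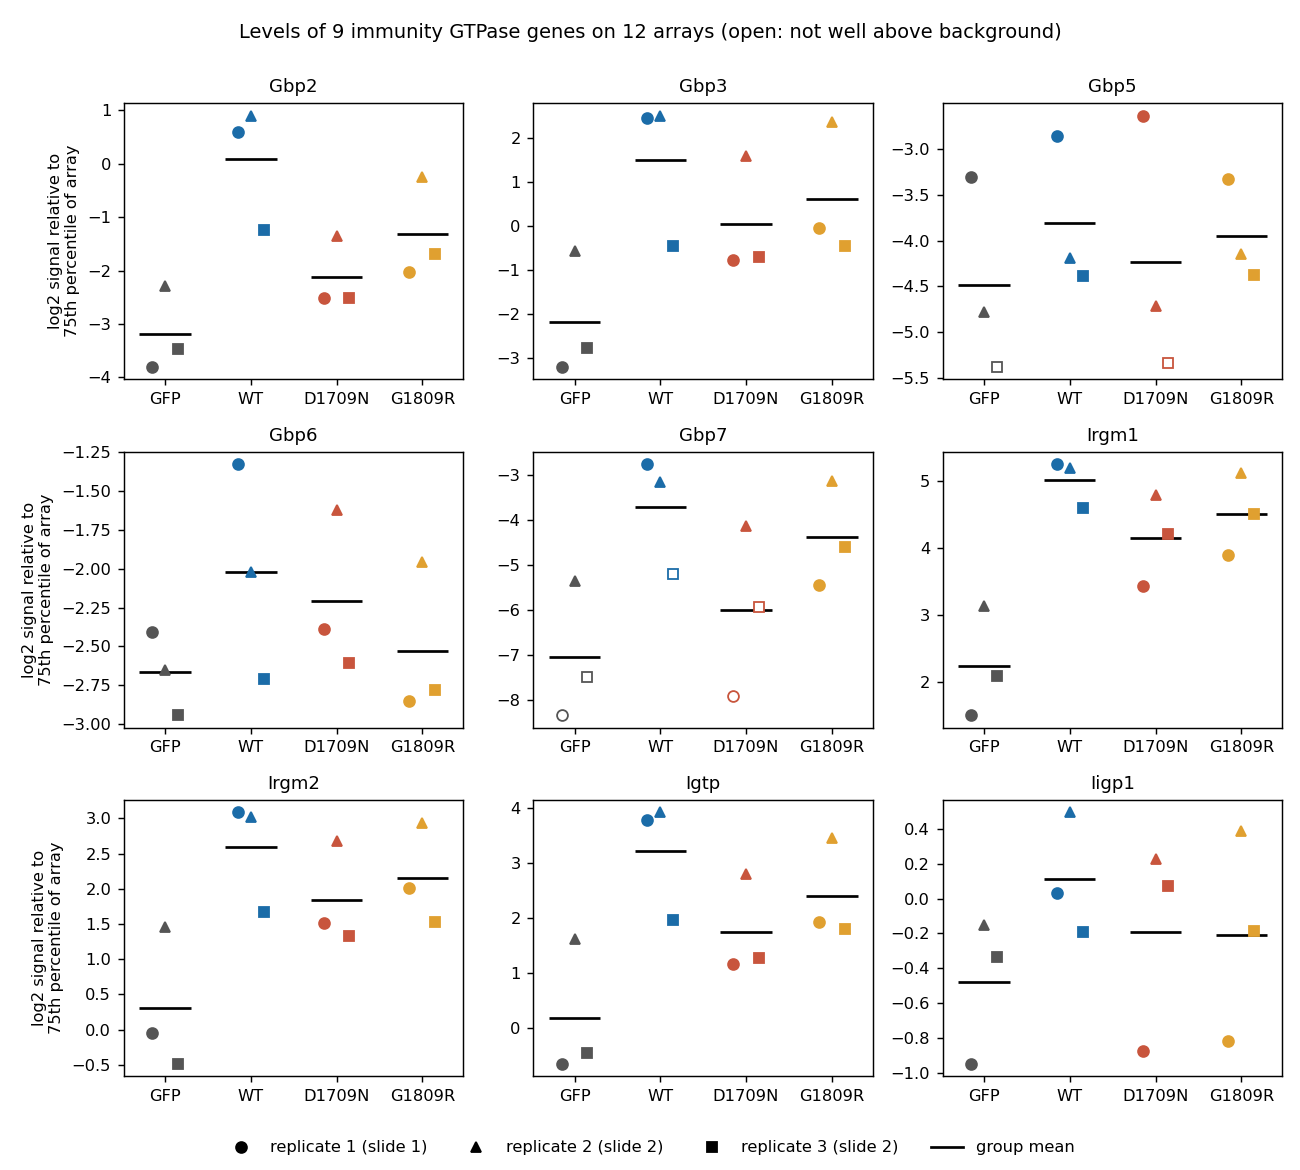
Levels of the 9 tested genes (log2 signal relative to the array's 75th percentile, y axis, 1 panel a gene with its own scale) on the 12 arrays, by group on the x axis; symbols mark the replicate, open symbols arrays where the probe was not well above background, and bars the group mean. For Gbp2, Gbp3, Gbp7, Irgm1, Irgm2 and Igtp the 3 WT arrays lie above the 3 GFP arrays, and replicate 2 is the highest array of GFP, D1709N and G1809R.

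Iigp1, an effector IRG that disrupts parasite vacuoles, showed how much the choice of probe weighs. Its brighter probe read −0.95, −0.15 and −0.33 in GFP and 0.03, 0.49 and −0.19 in WT, −0.87, 0.23 and 0.07 in D1709N and −0.82, 0.39 and −0.19 in G1809R. That is a difference of 0.59 ± 0.38 between WT and GFP, with limma adjusted p values of 0.567 and, with the replicate block, 0.0723. The dimmer probe of the same gene read −8.35, −5.60 and −7.22 in GFP, −1.45, −1.90 and −4.98 in WT, −5.49, −2.72 and −5.01 in D1709N and −4.45, −2.58 and −4.83 in G1809R. There the WT arrays lay above all GFP arrays, with a fitted change of 4.28 ± 1.12 and limma adjusted p values of 0.0778 and, with the replicate block, 0.00593.

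Gbp6 showed the same split, and fits with the dimmer probes were added after seeing the data. Its brighter probe read −2.41, −2.65 and −2.94 in GFP and −1.33, −2.02 and −2.71 in WT, which overlap, whereas its dimmer probe read −6.80, −5.26 and −7.18 in GFP and −2.50, −1.63 and −4.78 in WT, which do not. The fitted change of the dimmer probe was 3.44 ± 0.99, with limma adjusted p values of 0.106 and, with the replicate block, 0.000984. The dimmer probes of Gbp6 and Iigp1 were each well above background on 1 GFP array, 2 WT arrays, 2 D1709N arrays and 3 G1809R arrays, so the GFP side of both changes is mostly background and neither is a measured fold. Both probes passed the filter through G1809R alone, so their changes in G1809R are description only. Against GFP, the dimmer probe of Gbp6 gave 1.52 ± 0.99 in D1709N and 2.11 ± 0.99 in G1809R (limma adjusted p with the replicate block 0.0581 and 0.0253), and that of Iigp1 gave 2.65 ± 1.12 and 3.10 ± 1.12 (0.0841 and 0.0583). The 2 probes of Irgm1, by contrast, gave 2.77 and 2.86. Which transcripts each probe of a gene reads was not tested.

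**Figure D2:**
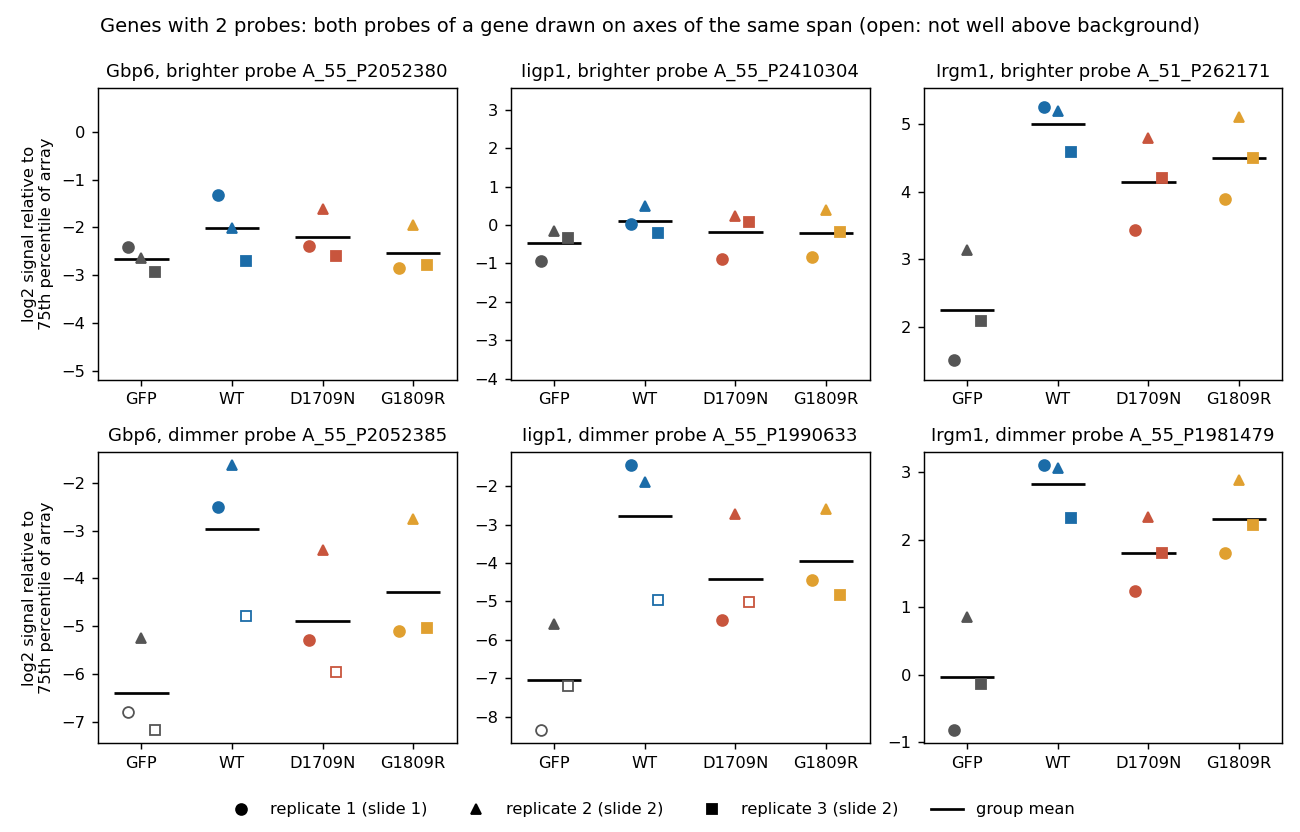
Both probes of Gbp6, Iigp1 and Irgm1 by group (log2 signal relative to the array's 75th percentile), the brighter probe above and the dimmer below, with both panels of a gene drawn over the same span. The dimmer probes of Gbp6 and Iigp1 separate WT from GFP by 3.44 and 4.28, against 0.65 and 0.59 for the brighter ones, while both Irgm1 probes give near the same change.

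Arrays with the same replicate number rose and fell together. The mean level of the 9 tested members was −2.35, −1.07 and −2.36 in GFP replicates 1 to 3, −1.22, 0.03 and −1.14 in D1709N and −0.74, 0.53 and −0.70 in G1809R. Replicate 2 was highest in these 3 groups by over 1 log2 unit. In WT the mean levels were 0.92, 0.74 and −0.66, so replicate 1 was not below replicate 2 there. Accordingly, the difference of WT from GFP was largest in pair 1, with a median over the members of 3.74, against 2.06 in pair 2 and 2.22 in pair 3. Within slide 1 (1 array a group) the differences of the 9 members ranged from 0.45 to 5.65, and within slide 2 (2 arrays a group) from 0.39 to 2.71. With slide as a block, limma called Gbp2 (adjusted p = 0.0181), Igtp (0.0399) and Irgm1 (0.00425). The slide block also raised the number of calls over all genes, as counted further on, so the added call of Igtp is not particular to the members. On slide 2 alone limma called none of the 9, the lowest adjusted p being 0.109.

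The 2 calls made without the block were each lost without 1 of several arrays, while the changes ran from 2.40 to 3.21 for Irgm1 and from 2.86 to 3.93 for Gbp2 over the 12 fits. Irgm1 lost its call when any 1 of GFP replicate 1 (adjusted p = 0.072), GFP replicate 3 (0.0824), WT replicate 1 (0.0629) or WT replicate 2 (0.0714) was left out. Gbp2 lost its call without GFP replicate 1 or 3, WT replicate 1 or 2, D1709N replicate 1 or 3, or G1809R replicate 3, with adjusted p up to 0.13. Without WT replicate 1, the array that stood apart, Gbp2 changed by 3.02 (adjusted p = 0.108) and Irgm1 by 2.65. With the replicate block and without WT replicate 1, the same 6 members passed, beside 6.7% of all genes in that direction, at smaller changes: 2.73 for Gbp2, 2.79 for Gbp3, 2.16 for Gbp7, 2.46 for Igtp, 2.30 for Irgm1 and 1.90 for Irgm2. Over the 12 blocked fits that each left out 1 array, the calls of Gbp2, Gbp3, Igtp, Irgm1 and Irgm2 held in 12 of 12 and that of Gbp7 in 10.

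The next comparisons ask whether DICER1 carrying a hotspot substitution did the same. They share the GFP arrays with the first, so the changes are given side by side and not as separate support. For G1809R against GFP, 9 of 9 members were above 0, beside 59.68% of all genes, with a median of 1.86, beside 0.05. These 9 include Gbp5, which entered the test through WT and G1809R, and Gbp7, which entered through G1809R alone. Limma's threshold was passed by 0 of 9 (0% of all genes did so in the higher direction). There were 6 members at an unadjusted p under 0.05, where 6.64% of all genes lay in either direction. Gbp7, which entered the test through G1809R alone, was among them, so this count is description only. In the blocked fit 5 members rose, Gbp2, Gbp3, Igtp, Irgm1 and Irgm2, beside 1.75% of all genes in that direction. The arrays of those 5 did not overlap between G1809R and GFP, beside 6.14% of all genes.

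Irgm1 was 4.79-fold higher in G1809R than in GFP (log2 change 2.26 ± 0.48, limma adjusted p = 0.251, with the replicate block 0.0116). Gbp3 was higher by 2.80 ± 1.11 (0.675, with the block 0.0362), and its differences in pairs 1 to 3 were 3.14, 2.93 and 2.33. Igtp was higher by 2.23 ± 0.78, Irgm2 by 1.85 ± 0.61 and Gbp2 by 1.86 ± 0.67, with blocked adjusted p values of 0.0229, 0.0147 and 0.0362. Gbp7 had a fitted change of 2.66 ± 1.11 with a blocked adjusted p of 0.0901. It entered the test through G1809R alone and its GFP side is mostly background, so this is no measured fold. Leaving out 1 array at a time, Irgm1 passed in 10 of 12 blocked fits, Irgm2 in 7, Igtp in 6, Gbp3 in 3 and Gbp2 in 2.

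For D1709N against GFP, 9 of 9 members were above 0, beside 54.65% of all genes, with a median of 1.06, beside 0.03. Limma's threshold was passed by 0 of 9 (0.00827% of all genes did so in the higher direction). There were 2 members at an unadjusted p under 0.05, beside 7.21% of all genes in either direction. Blocked by replicate number, the same 2, Irgm1 and Irgm2, rose, beside 1.76% of all genes. Irgm1 was 3.73-fold higher (log2 change 1.90 ± 0.48, limma adjusted p = 0.306, with the block 0.0157) and Irgm2 2.88-fold higher (1.53 ± 0.61, 0.619 and 0.0219). The 3 D1709N arrays lay above the 3 GFP arrays for 1 of 9 members, Irgm1, beside 7.77% of all genes. Irgm1 kept its blocked call in 8 of the 12 leave-one-out fits and Irgm2 in 7.

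The remaining D1709N changes were 2.22 for Gbp3, 1.57 for Igtp, 1.06 for Gbp2, 1.05 for Gbp7, 0.46 for Gbp6 and 0.29 for Iigp1 by their brighter probes, and 0.26 for Gbp5. The same-numbered pairs were close for several of them, with Gbp3 at 2.43, 2.16 and 2.08 and Gbp2 at 1.29, 0.94 and 0.95. Blocked fits without WT replicate 1, whose pair departs most from the others, called 5 of 9 members for D1709N (Gbp2, Gbp3, Igtp, Irgm1 and Irgm2, adjusted p from 0.000473 to 0.0273), beside 2.38% of all genes in the higher direction. They called the same 5 for G1809R, beside 2.29% of all genes. Gbp7, which had entered the test through G1809R alone, is not counted there. The array left out is in none of the groups compared here and was picked after seeing the data. Over all 12 blocked leave-one-out fits, the count ran from 0 to 5 for D1709N and, Gbp7 included, from 0 to 6 for G1809R. For D1709N, Gbp2 passed in 1 of those 12 fits, and Gbp3 and Igtp in 2 each.

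**Figure D3:**
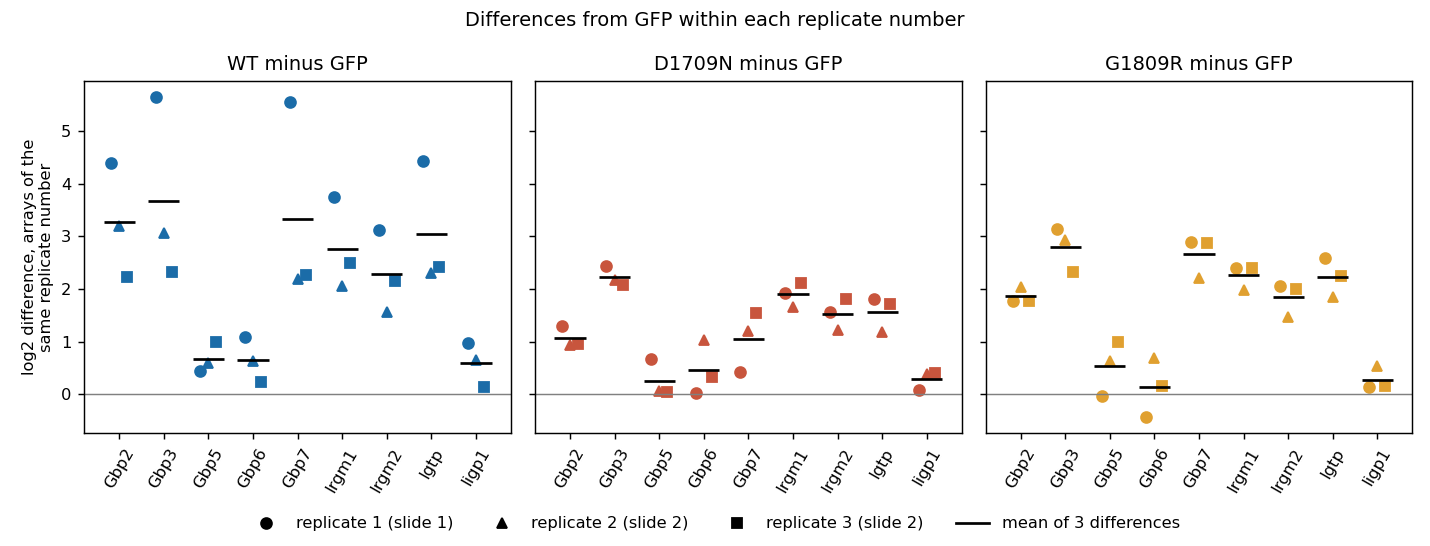
Difference from GFP between arrays of the same replicate number (log2, y axis) for the 9 tested genes (x axis), 1 panel a DICER1 group; symbols mark the replicate and bars the mean of the 3 differences. In D1709N and G1809R the 3 differences of Gbp2, Gbp3, Igtp, Irgm1 and Irgm2 lie close together and above 0, while in WT replicate 1 lies above the others.

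Taking the 3 DICER1 groups as one against GFP, the median change of the 9 members was 2.07, beside 0.04 over all genes. All 9 of 9 were higher in 3 of 3 pairs, where 57.95% of all genes had a change above 0. Gbp5 and Gbp7, which entered the test only through DICER1 groups, are among the 9. Limma called 0 of 9 (0.091% of all genes passed in the higher direction). There were 6 members, Gbp7 among them, at an unadjusted p under 0.05, where 10.6% of all genes lay in either direction. The lowest adjusted p was 0.0521, for Irgm1, whose change was 2.31 ± 0.39, and its dimmer probe passed at 0.0435. In the blocked fit Gbp2, Gbp3, Igtp, Irgm1 and Irgm2 rose, beside 4.92% of all genes. Gbp7, which entered the test through G1809R alone, also passed.

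Group means ran WT, G1809R, D1709N, GFP from high to low for 7 of the 9 members. The exceptions were the brighter probes of Gbp6 and Iigp1, where D1709N stood above G1809R, and with quantile normalization or the deposited table Gbp5 joined them, with G1809R above WT. Neighbours in that order were set against each other directly. G1809R was below WT for 9 of 9 members, where 50.97% of all genes were above 0. The members' median was −0.51 beside 0.01 over all genes. Limma called 0 of them (0.604% of all genes passed in the lower direction), with 0 at an unadjusted p under 0.05, beside 12.2% of all genes. Under the block Gbp2 alone fell among the 9, by 1.41 ± 0.67 (blocked adjusted p = 0.0414, against 0.451 without it), beside 6.31% of all genes, and that call held in 1 of the 12 blocked leave-one-out fits. For Irgm1 the 95% interval of the difference, from the fit without the block, ran from −1.58 to 0.57.

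D1709N was also below WT for 9 of 9 members, where 48.98% of all genes were above 0. The members' median was −0.87 beside −0.01 over all genes, and limma called 0 of them (0.67% of all genes passed in the lower direction). Gbp2 was the only one of the 9 at an unadjusted p under 0.05, where 13.7% of all genes lay. With the replicate block 2 of the 9 fell, beside 8.42% of all genes. Gbp2 fell by 2.21 ± 0.67, with adjusted p values of 0.157 and, with the block, 0.00686, and the lowest WT array (−1.24) lay above the highest D1709N array (−1.35), a lack of overlap in that direction shared by 7.58% of all genes. Igtp was lower by 1.48 ± 0.78 (0.469, with the block 0.0329). In the blocked leave-one-out fits Gbp2 passed in 12 of 12 and Igtp in 8. In size, the gap to WT was wider on slide 1 than on slide 2 for 9 of 9 members in G1809R and for 8 of 9 in D1709N, Gbp5 being the exception at 0.22 and −0.74. Irgm1 in G1809R differed from WT by −1.35 on slide 1 and by −0.08 on slide 2, and Gbp2 in D1709N by −3.10 and −1.76.

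D1709N and G1809R were not told apart. Limma called 0 of the 24184 genes between them (0%), with or without the replicate block, and 0 of the 9 members had an unadjusted p under 0.05, beside 0.269% of all genes. The median difference of the members was −0.36. In the fit without the block, 95% intervals were −2.30 to 0.70 for Gbp2, −1.43 to 0.71 for Irgm1 and −1.68 to 1.05 for Irgm2. Differences of over 1 log2 unit in the direction of a lower D1709N lie within each of these intervals. With the block the standard errors of these 3 genes were smaller, 0.37, 0.29 and 0.26 in place of 0.67, 0.48 and 0.61, and intervals from it are not given. Within pairs, D1709N was below G1809R for Gbp2, Gbp3, Igtp, Irgm1 and Irgm2 in 3 of 3 pairs each. Gbp7, which entered the test through G1809R alone, did likewise. Of all genes, 46.51% were above 0 in this comparison, and the share below in 3 of 3 pairs is not given, so this is description only.

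The members varied together over the arrays. Over the 36 pairs of the 9 tested genes, the Pearson correlation across 12 arrays had a median of 0.731 and ran from −0.483 (Iigp1 with Gbp5) to 0.989 (Igtp with Gbp3). After each group's mean was removed the median was 0.762, from −0.71 to 0.987. These are descriptions, since the points share arrays, slides and replicate numbers. Gbp5 was the member that departed, with correlations with the other 8 of −0.483 to 0.348. Outside the members, the 5 named genes whose level was most like the members' mean over the 12 arrays were Samd9l (r = 0.996), Trim34a (0.995), Trim21 (0.991), Usp18 (0.991) and Oasl1 (0.991). On the 8 arrays of slide 2 alone these 5 correlations were 0.995, 0.997, 0.989, 0.991 and 0.986.

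Other GTPases of the same families moved in part with them. Of 14 tested genes, 1 rose in WT against GFP, the very large GTPase Gvin1 (from 1.81 ± 0.56 to 4.40 ± 0.59, SD, n = 3 each; log2 change 2.59 ± 0.41, limma adjusted p = 0.0132), and the list's median was 0.25. With the block 6 rose and 2 fell, beside 9.18% and 8.6% of all genes. The 4 others with large changes over the 3 DICER1 groups were effector IRGs or their close relatives: Tgtp2 (4.26 ± 1.11 in WT, 2.65 in D1709N, 3.38 in G1809R), Gm4951 (3.23, 1.32, 1.95), Gm4841 (3.19, 1.82, 2.30) and Tgtp1 (2.95, 1.30, 2.21). Their limma adjusted p values in WT ran from 0.0763 to 0.118 without the block and from 0.00193 to 0.00944 with it.

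Of 23 tested interferons, receptors and signalling genes, 1 rose in WT against GFP, Ifnb1, which codes for interferon-beta. Its level was −6.69 ± 1.49 (SD, n = 3) in GFP, where it was well above background on 1 array, −2.22 ± 0.68 in WT, −4.42 ± 0.29 in D1709N and −3.95 ± 0.15 in G1809R, and it was well above background on all 9 arrays of those groups. Ifnb1 thus entered the test through the DICER1 groups and not through GFP, so its call is description only. The fitted WT change, whose GFP side is mostly background and which is therefore no measured fold, was 4.48 ± 0.62 (limma adjusted p = 0.00784), and those of D1709N and G1809R were 2.27 ± 0.62 and 2.74 ± 0.62 (adjusted p = 0.36 and 0.295; with the block 0.0801 and 0.051). Ifng, coding for interferon-gamma, was well above background on no array. Usp18, a brake on type I interferon receptor signalling, changed by 3.40 ± 0.95 in WT, the transcription factor Irf7 by 2.98 ± 0.73 and the signal transducer Stat2 by 1.80 ± 0.67, and these 3 passed only with the replicate block (0.00267, 0.0017 and 0.00558, against 0.0951, 0.0625 and 0.216). Irf1, the factor that serves GBP transcription in the interferon-gamma response, read 2.82 ± 0.31 in GFP and 2.86 ± 0.26 in WT, a difference of 0.04 ± 0.24. The list's median was 0.04, and with the block 7 rose and 3 fell, beside 9.18% and 8.6% of all genes.

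The 2 lists of response genes differed in their medians. Of 15 tested genes typical of the type I interferon response, 15 were above 0 in WT against GFP with a median of 3.60, 3 rose (the antiviral genes Oasl1, 4.16 ± 0.84; Cmpk2, 3.60 ± 0.78; and Ifih1, 3.36 ± 0.73; limma adjusted p = 0.0318, 0.0413 and 0.041), and 14 rose with the replicate block, beside 9.18% of all genes. Others with large changes in WT were Ifi44 (4.99), Ifit1 (4.61), Isg15 (4.43) and Oasl2 (4.03). Of 12 genes typical of the interferon-gamma response, 7 were tested, with a median of 0.46 in WT against GFP, and 0 passed without the block. With the block 1 of the 7 rose, beside the same share of all genes, H2-DMb1 (0.80 ± 0.19, adjusted p = 0.0607, with the block 0.00704), which helps load peptide on MHC class II. Cd274, coding for PD-L1, differed by 0.57 ± 0.27, Cd74 by 0.55 ± 0.56 and Nos2 by 0.14 ± 0.44. The median of the members, 2.77, lay between those of the 2 lists. In D1709N the type I list had a median of 1.89 and in G1809R of 2.64, beside 0.31 and 0.19 for the interferon-gamma list.

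**Figure D4:**
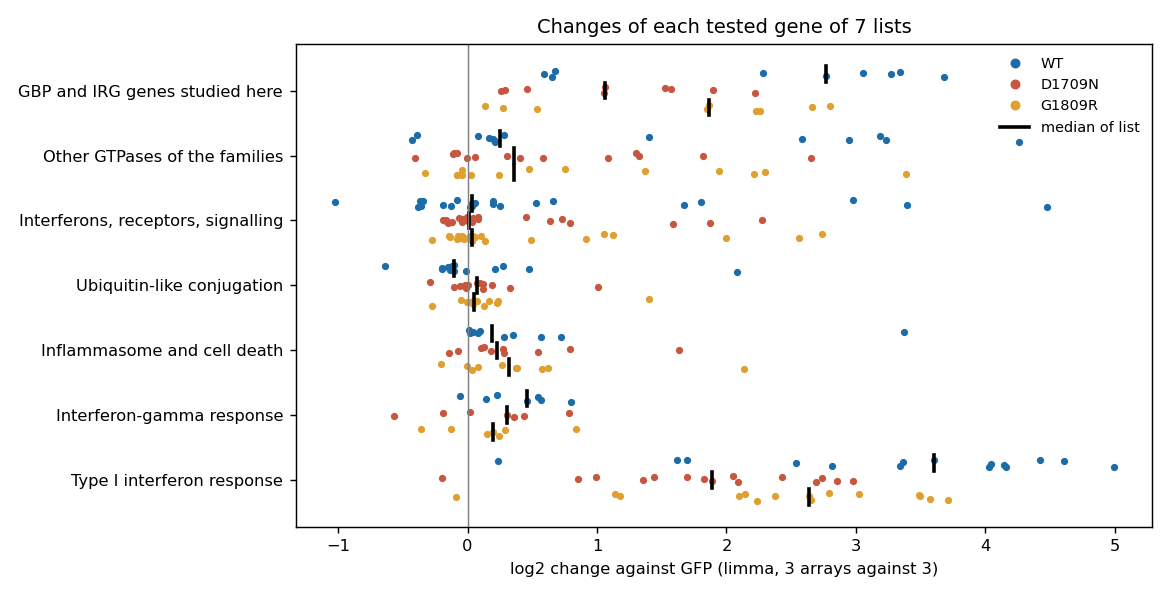
Log2 change against GFP (x axis, limma, 3 arrays against 3) of every tested gene of 7 lists (rows), coloured by DICER1 group, with the median of each list and group as a black bar. The GBP and IRG genes have medians of 2.77, 1.06 and 1.86 in WT, D1709N and G1809R, and the type I interferon list is the only other one with medians above 1.

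Counts for the machinery that acts with these GTPases stand beside 1.19% of all genes called higher without the block, and 9.18% higher and 8.6% lower with it. Of 13 tested genes for the ubiquitin-like conjugation that places GBP and IRG proteins on vacuoles, 0 passed in WT against GFP without the block, and the median was −0.11. With the block, 1 rose, the ubiquitin ligase Trim21 (2.08 ± 0.60, adjusted p = 0.109, with the block 0.00204), and 1 fell, Atg16l1 (by 0.64 ± 0.21; 0.145 and 0.002). The autophagy receptor Sqstm1 differed by 0.48 ± 0.52 and Atg12 by −0.20 ± 0.16. Of 10 tested inflammasome and cell death genes, 0 passed without the block and the median was 0.19. With it 3 rose, the nucleic acid sensor Zbp1 (3.37 ± 1.02; 0.122 and 0.00346), Naip2 (0.72 ± 0.20; 0.0927 and 0.00278) and the necroptosis effector Mlkl (0.57 ± 0.17; 0.123 and 0.00559). Il18 differed from GFP by 0.09 ± 0.24 in WT, 0.79 ± 0.24 in D1709N (0.446 and 0.0221) and 0.58 ± 0.24 in G1809R (0.72 and 0.0571). Aim2, the DNA sensor downstream of GBPs in infected cells, was well above background on no array.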

How the data were processed

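Agilent Feature Extraction 11.0.1.1 made the scanner files, per the file headers and the submitters' processing notes. The authors deposited for each spot a processed intensity, background-subtracted and detrended but not scaled between arrays per the file headers, median intensities of spot and local background (used for the normexp alternative), and flags coded 0 or 1 for other properties. The authors' deposited value table holds log2 signals (31334 of 31362 rows matched a probe, array medians 9.40 to 9.42); its scaling and centring are not given in the sources used here.

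Each array's log2 processed intensity was taken relative to its 75th percentile over 59305 non-control spots. Outlier-flagged spots were left out, and 287 of 55681 probes lost all spots on an array this way. Kept were 33024 probes that stood well above background on all arrays of 1 or more groups, and the brightest probe stood for its gene (24184, of which 14732 had a symbol). All 12 arrays were fitted on group with limma 3.58.1 (R 4.3.3), with Benjamini-Hochberg adjustment over all genes and a threshold of 0.05; the fit was tested on simulated data. All adjusted p values are from limma. The 3 arrays of a group limit the precision.

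Replicate numbers come from the labels; same-numbered deviations correlated at 0.601 to 0.853, and 12 of 12 arrays correlated best with their own number, so the fit with the replicate number as a block is also given. Alternatives were quantile normalization, normexp, the deposited table, no filter on dim probes, the mean over probes, slide as a block, slide 2 alone and each array left out; the dimmer probe and blocked leave-one-out fits were added after seeing the data.

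Members and lists were chosen with earlier results of these data known. Named genes are all members; from each pathway list those called in WT against GFP and otherwise up to 4 with the largest change of the mean of the 3 DICER1 groups; and the 5 genes most correlated with the members' mean. 1 gene that this rule names is not reported here. Other names (Ifng, Irf1, H2-DMb1, Atg16l1, Aim2, markers) were chosen after their values were seen. Promoters come from RefSeq's table; the array's annotation uses another build, so no other coordinates are given.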

Additional observations from a re-analysis of the deposited data

How the results depend on the processing

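Of 2205 recomputed log2 changes of members, 41 changed sign, each in a difference that had not passed. Counts of calls depended most on the replicate block, whose construction removes the shared deviations of same-numbered arrays, and on the number of arrays. Signals near background limit Gbp4, Gbp5, Gbp7 and the dimmer probes of Gbp6 and Iigp1. The cause of the other shifts was not tested.

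Genes past the threshold, of 24184, numbered 713 (WT against GFP), 12 (D1709N against GFP), 3 (G1809R against GFP), 402 (D1709N against WT), 397 (G1809R against WT), 0 (D1709N against G1809R) and 68 (3 DICER1 groups against GFP). In the same order, leaving out D1709N against G1809R, the replicate block gave 4300, 1027, 904, 3759, 3064 and 2392 and the slide block 2112, 97, 63, 1407, 1206 and 652. Slide 2 alone gave 3, 1, 1, 3, 11 and 1, and no filter on dim probes 206, 2, 1, 55, 68 and 2. A fit of only the groups compared gave 3, 0, 1, 0 and 0 for the first 5. The mean over probes gave 3 for D1709N against GFP, 1 for G1809R against GFP and 45 for the 3 groups, and normexp gave 5 for G1809R against GFP and 145 for the 3 groups. Leaving out 1 array gave 146 to 601 for WT against GFP, 2 to 8, 1 to 2, 41 to 307, 70 to 314 and 1 to 47. For WT against GFP the count fell by over 1.5 times without GFP replicate 1, 2 or 3 (201, 386 and 146), WT replicate 1 or 2 (290 and 226) or D1709N replicate 3 (443).

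Members called numbered 2 of 9 in WT against GFP and 0 in the other comparisons. With the replicate block they numbered 6 (WT against GFP), 2 (D1709N against GFP), 5 (G1809R against GFP), 2 (D1709N against WT), 1 (G1809R against WT) and 6 (3 groups against GFP). In that order, 9.18%, 1.76%, 1.75%, 8.42%, 6.31% and 4.92% of all genes passed in the members' direction. With the dimmer probes and the replicate block, chosen after seeing the data, the counts were 8, 2, 6, 4, 1 and 8. The dimmer probes of Gbp6 and Iigp1, like Gbp7, entered through G1809R alone, so counts that include them are description only. In WT against GFP normexp called 4, no filter 1, only the groups compared 0 and slide 2 alone 0. For the 3 groups quantile normalization, normexp, the deposited table, the slide block and the dimmer probe each called 1. Leaving out 1 array, with or without the replicate block, gave 0 to 7, 0 to 5, 0 to 6, 0 to 4, 0 to 1 and 0 to 6. Quantile normalization and the deposited table each gave 5 members without overlap in WT against GFP and 4 in G1809R against GFP, in place of 6 and 5.

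The changes of sign were as follows. Gbp5 in G1809R against WT was 0.033 with quantile normalization, 0.060 with normexp, 0.027 in the deposited table and 0.029 on slide 2. On slide 2 Gbp7 was 0.32 in that comparison, and in D1709N against WT Gbp6 was 0.25 and Iigp1 0.0014. In D1709N against G1809R the mean over probes gave −0.13 for Gbp6 and −0.22 for Iigp1, and the dimmer probes gave −0.59 and −0.46, with and without the replicate block. Leaving out 1 array moved D1709N against GFP from −0.54 to 0.85 for Gbp5, and G1809R against GFP from −0.15 to 0.43 for Gbp6 and −0.025 to 0.58 for Iigp1. It moved D1709N against WT from −1.22 to 0.13 for Gbp5, −0.53 to 0.20 for Gbp6 and −0.52 to 0.041 for Iigp1. G1809R against WT ran from −0.45 to 0.34 for Gbp5, −1.86 to 0.011 for Gbp3 and −1.43 to 0.50 for Gbp7. D1709N against G1809R ran from −0.29 to 0.36 for Iigp1, −1.08 to 0.27 for Gbp5, −1.35 to 0.30 for Gbp3 and −0.74 to 0.069 for Irgm2.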

Other observations

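No gene of the 6 pathway lists was called lower in WT than in GFP without the replicate block. Socs3, an inhibitor of cytokine receptor signalling, was lower by 1.03 ± 0.28 on the log2 scale in WT (limma adjusted p = 0.0837, with the replicate block 0.00168), beside −0.04 in D1709N and −0.08 in G1809R. Jak2, a receptor kinase, differed by −0.36 ± 0.13 (0.185 and 0.0288) and the phosphatase gene Ptpn2 by −0.34 ± 0.15 (0.312 and 0.032). The atlastins Atl2 and Atl3, GTPases of the endoplasmic reticulum related to the GBPs, differed by −0.39 ± 0.12 and −0.43 ± 0.21 (0.133 and 0.377, with the block 0.0232 and 0.0453).

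The interferon receptor genes differed little between WT and GFP, with 0.03 ± 0.14 for Ifnar1, 0.20 ± 0.12 for Ifnar2, −0.08 ± 0.11 for Ifngr1 and −0.19 ± 0.24 for Ifngr2 (log2 change and standard error). Of the type I interferon list, Ifit2 was the gene that did not pass with the block, at 0.24 ± 0.41. Within the GBP run on chromosome 3, Gbp2b, which lies between Gbp3 and Gbp2, was well above background on 1 GFP array and 1 WT array only. On chromosome 5, Gbp9, next to Gbp4, differed by 1.41 ± 0.52 in WT (adjusted p = 0.213, with the block 0.00587) and Gbp10, next to Gbp6, by 0.08 ± 0.32.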
